A study of Mus musculus with 6 samples.

Results

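The nuclear-encoded subunits of the oxidative phosphorylation machinery were read as 1 module in lymphatic endothelial cells sorted from mouse melanomas. Members were taken by gene symbol: Ndufa, Ndufb, Ndufc, Ndufs or Ndufv followed by a digit, Uqcr, Atp5, Cox4 to Cox8, Sdha to Sdhd, and Cycs, leaving out assembly factors (Ndufaf) and pseudogene names. This gave 80 symbols, of which 77 had a mean of at least 1 CPM (reads of a gene scaled to a common library size) over the 6 libraries, among 11980 genes that reached this level and 13454 genes in the table. By prefix, 36 members belonged to complex I, 4 to complex II, 8 to complex III, 12 to complex IV and 16 to complex V, and 1 encoded cytochrome c. The rule used no difference between genotypes. The 3 symbols below the limit were Cox4i2 (mean 0.81 CPM), Atp5g2 (0.69 CPM) and Cox7a1 (0.53 CPM), and the lowest members above it were Ndufa4l2 (2.02 CPM) and Cox6b2 (2.32 CPM). A few names do not follow present assignments: Ndufa4 was named for complex I and has since been placed in complex IV, Cox7a2l is a supercomplex assembly factor, and Atp5s and Atp5sl are not standing subunits of ATP synthase. They are grouped by name.

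The mice carried transplanted B16-OVA-VEGFC tumours, a lymphangiogenic derivative of the B16 mouse melanoma line. In 3 libraries, labelled LEC-Ch25h KO, the hosts lacked Ch25h in their lymphatic endothelium, and in 3 libraries, labelled LEC-CH25h WT, they were littermate controls. Ch25h encodes cholesterol 25-hydroxylase, the enzyme that makes 25-hydroxycholesterol. The sources used here give no age or sex of the mice, no promoter that drives the deletion and no other allele. They do not state either whether each library is a different animal, and the spread behind every p-value may therefore be technical. All cells were sorted as CD45- CD31+ GP38+ from digested tumours, and cDNA was amplified from total RNA with a full-length kit that does not record the strand.

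Oxidative phosphorylation couples the oxidation of fuels to ATP synthesis in the inner mitochondrial membrane. Complex I (NADH dehydrogenase) and complex II (succinate dehydrogenase, also an enzyme of the tricarboxylic acid cycle) pass electrons to ubiquinone. Complex III passes them to cytochrome c and complex IV (cytochrome c oxidase) passes them on to oxygen. Complexes I, III and IV pump protons, and complex V (ATP synthase) uses the gradient to make ATP. Most subunits are encoded in the nucleus, and a few core subunits of complexes I, III, IV and V are encoded by mitochondrial DNA, which were not analysed here. Endothelial cells are known to draw much of their ATP from glycolysis and to use their mitochondria largely for biosynthesis and signalling.

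The targeted gene separated the groups. WT libraries 1, 2 and 3 held Ch25h at 82.9, 88.8 and 106 CPM. The Ch25h KO libraries held it at 0, 0.0232 and 2.95 CPM, from 0, 1 and 117 reads. Its log2 fold change on the log2(CPM + 1) scale was -5.87 ± 0.47 (SE), with an adjusted p of 0.00365 by limma. It was the only gene of 11980 below the threshold of 0.05, which is 0.00835% of all genes tested. Of 8 markers of the labelled cell type, lymphatic endothelium, 7 were measured, among them Prox1, Flt4 and Reln. Summed, they reached 6885, 9162 and 8112 CPM in the libraries from WT hosts, and 6130, 8811 and 8637 CPM in those from knockout hosts. Libraries held 36556824 to 46165273 reads, so that 3 reads correspond to 0.0648 to 0.0805 CPM, and pairs of libraries correlated at 0.955 to 0.979 over genes on the log2 scale.

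Subunit transcripts were abundant in these cells. The 77 members summed to 17349, 12934 and 13266 CPM in WT libraries 1, 2 and 3 (mean 14516 ± 2459, SD, n = 3) and to 16932, 15220 and 14607 CPM in the Ch25h KO libraries (mean 15586 ± 1205, SD, n = 3). The 2 groups overlapped, and the members took 1.30% to 1.73% of all reads. In level per transcript length, the medians were 147.7 CPM per kb for complex I, 159.4 for complex II, 227.4 for complex III, 322 for complex IV and 199 for complex V. Atp5b, the catalytic beta subunit of ATP synthase, had the highest level of all placed members, at 1098 CPM per kb. Cox6a1 and Cox4i1, subunits of cytochrome c oxidase, followed at 751 and 741 CPM per kb, and Atp5g3, one of the genes for the proton-carrying c subunit, stood at 601 CPM per kb. The lowest levels per length belonged to Cycs (1.45 CPM per kb), Ndufa4l2 (2.17) and Cox6b2 (4.99).

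**Figure D1:**
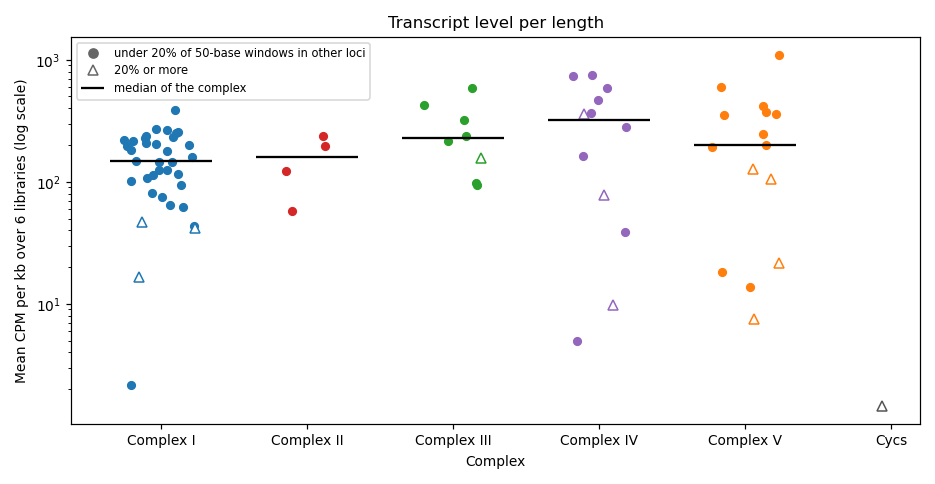
Mean CPM per kb of transcript over 6 libraries (log scale) for the 76 members with 1 placed gene record, by complex; open triangles have 20% or more of their 50-base windows in another annotated locus, and bars are the medians of each complex, 322 CPM per kb for complex IV and 147.7 for complex I. Cycs, at 1.45 CPM per kb, is the lowest point, and Atp5b, at 1098, the highest.

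Of the lowest levels named above, only that of Cycs belonged to a gene with near-identical copies elsewhere. For Ndufa4l2 and Cox6b2, 0% of the transcript, read in windows of 50 bases, occurred in another annotated locus. Whether copies lowered any listed level was not tested. In 12 members, 20% or more of the 50-base windows of the transcript also occurred in another annotated locus, mostly processed pseudogenes. Their median was 44.1 CPM per kb, against 200.4 for the 64 members below that share. The shares were 68.5% for Atp5l, 66.0% for Atp5g1, 53.0% for Cox7c, 50.5% for Atp5h, 43.2% for Uqcrb and 28.5% for Cycs, and Atp5g2 reached 100%. The sources used here do not say how reads that match several loci were counted, so levels of these members are uncertain. The start of the Cycs coding sequence shows the problem, because a read from it could also have come from an identical copy. Over all 315 coding bases, Gm10053 on chromosome 19 matched Cycs at 315. The processed pseudogenes Gm10108 on chromosome 5 and Gm13772 on chromosome 2 each matched at 313. Gm13772, not printed, has the same first 60 bases as Cycs, while a read over the capitals of Gm10108 tells it apart. Bases 1 to 60 of the coding sequence (GENCODE M21, GRCm38, coding strand, 5′ to 3′) follow, with letters that differ from Cycs in capitals.
Cycs: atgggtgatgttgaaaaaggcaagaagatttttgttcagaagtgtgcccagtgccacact
Gm10053: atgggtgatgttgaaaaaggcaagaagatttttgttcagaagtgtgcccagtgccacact
Gm10108: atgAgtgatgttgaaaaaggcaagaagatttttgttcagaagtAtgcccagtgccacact

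Some promoters of the module hold motifs of known regulators of mitochondrial genes. NRF1 and the ETS factor GABP (NRF2) are transcription factors known to bind promoters of many respiratory subunits, and the ERR family and YY1 act on part of them. In the RefSeq promoters (GRCm38.p6, 250 bases before to 50 after the start; 62 members matched), the NRF1 letters GCGCATGC occurred on either strand in 16.1% of members, against 5.9% of 8939 promoters of genes tested and 2.8% of all 27025. The ETS letters CCGGAAG occurred in 24.2%, 18.9% and 9.1% of these sets, and the YY1 letters AAGATGG in 14.5%, 7.6% and 6.5%. The ERR letters TNAAGGTCA occurred in 4.8%, 0.7% and 1.3%, where the share of members rests on only 3 promoters of 62. Each gene was read at its first listed start only. No motif was found in 31 members, 1 kind in 25 and 2 kinds in 6. The promoters printed here are those of the 2 members with the largest positive differences between genotypes, Cycs (chr6:50566520-50566819) and Atp5k (chr5:108434350-108434649), and of Cox6a1 (chr5:115348909-115349208), the highest member of complex IV per length. All 3 lie on the minus strand and are written 5′ to 3′ on that strand, with NRF1 and ETS matches in capitals. In Atp5k and Cox6a1 the NRF1 capitals hold 2 overlapping matches, one on each strand. A match is a description of the letters and not evidence of binding.
Cycs: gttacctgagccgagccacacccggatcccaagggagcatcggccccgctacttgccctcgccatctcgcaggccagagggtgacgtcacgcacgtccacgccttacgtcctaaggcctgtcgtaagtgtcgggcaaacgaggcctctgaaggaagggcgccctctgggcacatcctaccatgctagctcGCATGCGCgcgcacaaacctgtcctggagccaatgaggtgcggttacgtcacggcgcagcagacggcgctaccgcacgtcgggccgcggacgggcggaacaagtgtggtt
Atp5k: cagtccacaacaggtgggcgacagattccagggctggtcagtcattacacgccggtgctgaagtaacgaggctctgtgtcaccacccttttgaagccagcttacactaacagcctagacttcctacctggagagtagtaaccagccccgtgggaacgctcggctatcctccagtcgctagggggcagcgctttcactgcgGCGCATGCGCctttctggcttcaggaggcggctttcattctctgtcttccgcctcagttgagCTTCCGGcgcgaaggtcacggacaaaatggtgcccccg
Cox6a1: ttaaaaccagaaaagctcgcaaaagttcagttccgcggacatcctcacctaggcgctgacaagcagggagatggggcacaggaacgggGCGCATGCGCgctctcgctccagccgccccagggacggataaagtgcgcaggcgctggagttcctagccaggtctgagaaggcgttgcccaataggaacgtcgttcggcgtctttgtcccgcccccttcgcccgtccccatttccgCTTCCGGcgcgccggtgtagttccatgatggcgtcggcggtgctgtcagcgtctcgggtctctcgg

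Between genotypes, no subunit passed the test. Of 77 members, 0 had an adjusted p under 0.05 by limma, against 0.00835% of all genes tested, and 0.916 was the lowest value. Without adjustment, limma put 1 member, Cycs, under 0.05, against 5.41% of all genes. Run on the recovered reads, edgeR and DESeq2 also called 0 members. At an unadjusted p under 0.05 they put 0 and 1, against 5.46% and 6.25% of all genes. The mean on the log2 scale was higher in Ch25h KO in 71 members and lower in 6, against 49.6% of all genes with a higher mean. Members had a median log2 fold change of 0.14, and all genes tested one of -0.0021. This background differed with transcript length. Among genes outside the module, 677 of 1070 under 1 kb had a higher mean and 393 a lower one, with a median of 0.066. Of 2861 such genes of 4 kb or more, 982 had a higher mean and 1879 a lower one (median -0.093). Of 48 members under 1 kb, 47 had a higher mean and 1 a lower one (median 0.15). Over all members, differences ran from -0.88 (Ndufa4l2) to 0.56 (Cycs), and 69 of 77 lay between 0 and 0.25. The groups did not overlap in 3 members, all higher in Ch25h KO (Cycs, Uqcrfs1 and Atp5b), where 4.38% of all genes had every Ch25h KO library above every WT library. No member had all Ch25h KO libraries below WT, which 5.78% of all genes had.

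The small shift lay within the spread of the WT libraries. The median range among the 3 WT libraries was 0.63 on the log2 scale for members, and the median size of the difference between genotypes was 0.142. In 74 members (96.1%) the difference was smaller than the range within WT, which held for 86.8% of all genes. The half-width of the 95% interval had a median of 0.431 and ran from 0.285 to 0.916, and an interval reached past a doubling in 2 members and past a halving in 1. Single libraries set the size of the shift. Without WT library 1 the median was 0.30 and 28 members had an unadjusted p under 0.05, against 10.8% of all genes, with 0 called. Without WT library 2 the median was 0.016 and 43 members had a higher mean in Ch25h KO. Leaving out WT library 3 gave a median of 0.069, and leaving out Ch25h KO library 1 gave 0.037.

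**Figure D2:**
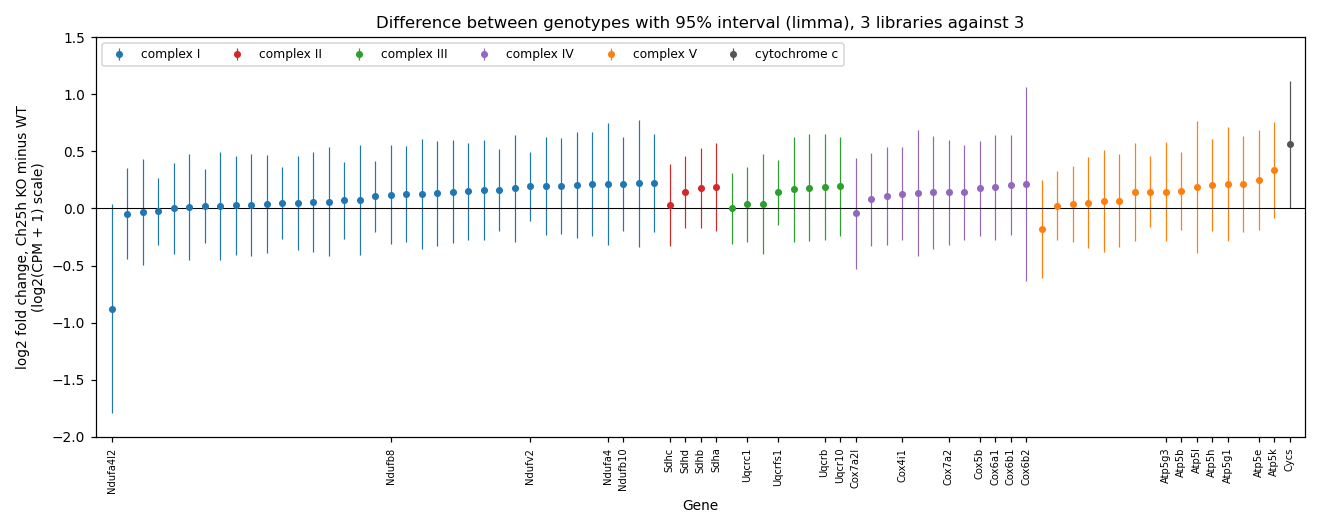
Difference in mean log2(CPM + 1) between 3 Ch25h KO and 3 WT libraries for 77 members, with 95% intervals from limma, ordered within each complex; only genes described by value are named on the axis. Nearly all points lie between 0 and 0.25; Cycs at 0.56 is the one whose interval stays above 0, and Ndufa4l2 at -0.88 lies furthest below.

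In complex I, 32 of 36 members had a higher and 4 a lower mean in Ch25h KO, and 0 were called. Their median log2 fold change was 0.11, and -0.0043 without WT library 2. Ndufb8, an accessory subunit of the membrane arm and the member with the highest mean CPM of complex I, stood at 328, 205 and 225 CPM in WT and at 314, 258 and 240 CPM in Ch25h KO. Library 1 was the highest in both groups and the groups overlapped. The difference was 0.12 on the log2 scale (95% interval -0.31 to 0.56), and -0.015 without WT library 2.

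Ndufv2, a core iron-sulfur subunit of the NADH-oxidising module, stood at 161, 142 and 145 CPM in WT and at 188, 172 and 154 CPM in Ch25h KO. Only Ch25h KO library 3 lay within the WT range. This gave a log2 fold change of 0.19 ± 0.13 (SE), with an adjusted p of 0.973 by limma. Ndufb10, an accessory subunit of the membrane arm, stood at 136, 92.0 and 97.7 CPM in WT and at 149, 114 and 113 CPM in Ch25h KO. Its log2 fold change was 0.22 (95% interval -0.20 to 0.63), and WT library 1 lay among the Ch25h KO libraries.

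Ndufa4l2, a relative of Ndufa4 known as a target of hypoxia-inducible factor, had the largest negative difference. It stood at 3.04, 3.50 and 1.90 CPM in WT, which are 139, 147 and 88 reads. In Ch25h KO it stood at 0.858, 2.53 and 0.303 CPM, which are 32, 109 and 12 reads. The 32 reads have an exact Poisson 95% interval from 21.9 to 45.2 reads, which covers counting error only. Ch25h KO library 2 overlapped the WT libraries and the other two lay below them. Its log2 fold change was -0.88 ± 0.41 (SE), with an unadjusted p of 0.0589 and an adjusted p of 0.939 by limma. It was -0.55 without Ch25h KO library 3. Annotated exons of Ndufa4l2 overlap those of Shmt2 on the other strand, and without strand, reads from the overlap cannot be told apart. However, 0% of the windows of the Ndufa4l2 transcript read here occurred in any other gene, Shmt2 included. Whether reads from the overlap entered its count was not tested.

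In complex II, all 4 members had a higher mean in Ch25h KO and 0 were called, with a median log2 fold change of 0.16. Sdha, the flavoprotein that oxidises succinate, stood at 268, 407 and 336 CPM in WT and at 341, 396 and 404 CPM in Ch25h KO. It had the opposite order of most members, with library 1 the lowest of each group. The difference on the log2 scale was 0.19 ± 0.17 (SE), with an adjusted p of 0.973 by limma. Sdhb, the iron-sulfur subunit, stood at 292, 228 and 236 CPM in WT and at 331, 273 and 253 CPM in Ch25h KO. The log2 difference was 0.18. Here library 1 was the highest of each group. The membrane anchors Sdhd and Sdhc had log2 fold changes of 0.15 (95% interval -0.17 to 0.46) and 0.03 (95% interval -0.33 to 0.39), and their groups overlapped too. The value of Sdhc was -0.038 when WT library 2 was left out, -0.053 when WT library 3 was, and -0.021 when Ch25h KO library 1 was.

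In complex III, all 8 members had a higher mean in Ch25h KO and 0 were called, with a median log2 fold change of 0.15. Uqcrfs1, the Rieske iron-sulfur protein, stood at 131, 116 and 131 CPM in WT and at 145, 140 and 134 CPM in Ch25h KO. Every Ch25h KO library lay above every WT library, by a margin that was narrow next to the spread within the groups. Its log2 fold change was 0.14 ± 0.13 (SE), with an unadjusted p of 0.294 and an adjusted p of 0.973 by limma. Uqcrc1, a core subunit and the member with the highest mean CPM of complex III, stood at 619, 486 and 477 CPM in WT and at 542, 545 and 526 CPM in Ch25h KO. WT library 1 lay above all the others. The log2 difference was 0.04, and it was -0.015 without WT library 2 and -0.030 without WT library 3. The small subunits Uqcr10 and Uqcrb had log2 fold changes of 0.19 in both cases, with 95% intervals of -0.24 to 0.63 and -0.28 to 0.66.

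Cycs encodes somatic cytochrome c, which carries electrons from complex III to complex IV and also takes part in apoptosis once released from mitochondria. It had the largest positive difference of the module. It stood at 4.05, 3.67 and 2.74 CPM in WT and at 5.90, 5.36 and 5.47 CPM in Ch25h KO, and the groups did not overlap. These are 185, 154 and 127 reads against 220, 231 and 217 reads. The means were 3.49 ± 0.67 and 5.58 ± 0.29 CPM (SD, n = 3 each), and the log2 fold change was 0.56 ± 0.25 (SE; 95% interval 0.0046 to 1.12), with an unadjusted p of 0.0485 and an adjusted p of 0.916 by limma. The difference was between 0.44 and 0.65 when each library was left out in turn. As shown by its coding sequence, part of its reads could come from copies or be lost to them.

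**Figure D3:**
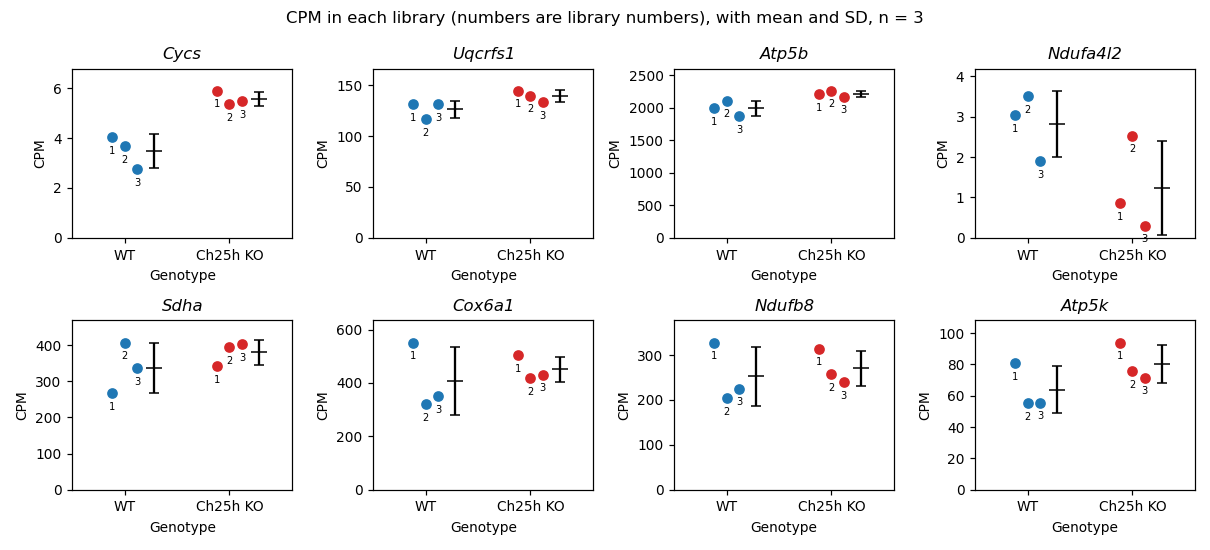
CPM in each library for 8 members, with library numbers beside the points and the mean with SD (n = 3) to the right of each group. Cycs, Uqcrfs1 and Atp5b have no overlap between WT and Ch25h KO; Cox6a1, Ndufb8 and Atp5k show library 1 highest in both groups, while in Sdha library 1 is the lowest, at 268 CPM (WT) and 341 CPM (Ch25h KO).

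In complex IV, 11 of 12 members had a higher mean in Ch25h KO, 1 a lower one (Cox7a2l), and 0 were called. Their median log2 difference was 0.14, and -0.016 without WT library 2. Cox4i1, a regulatory subunit and the member with the highest mean CPM of this complex, stood at 659, 433 and 498 CPM in WT and at 656, 550 and 517 CPM in Ch25h KO. Cox6a1, the form outside heart and muscle of a subunit of the same enzyme, stood at 551, 320 and 350 CPM in WT and at 504, 418 and 431 CPM in Ch25h KO. In both genes WT libraries spanned the whole range of Ch25h KO libraries. The log2 fold changes were 0.13 (95% interval -0.28 to 0.54) for Cox4i1 and 0.18 (95% interval -0.28 to 0.64) for Cox6a1. The value of Cox4i1 was -0.0041 without WT library 2.

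Cox6b1, which lies on the intermembrane side of the enzyme, stood at 447, 268 and 301 CPM in WT and at 425, 356 and 367 CPM in Ch25h KO. Its log2 fold change was 0.21 ± 0.19 (SE), with an adjusted p of 0.973 by limma, and WT library 1 was above all Ch25h KO libraries. Cox5b, a zinc-binding subunit on the matrix side, had a log2 fold change of 0.18 (95% interval -0.24 to 0.60), with 25.9% of its windows shared with another locus. Cox6b2, known as a testis isoform, was close to the 1 CPM limit, at 2.45, 0.763 and 3.31 CPM in WT and at 2.60, 1.83 and 2.97 CPM in Ch25h KO. Its groups overlapped fully, and its interval of -0.64 to 1.06 was among the widest of the module. The difference of 0.21 became -0.17 without WT library 2.

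In complex V, 15 of 16 members had a higher mean in Ch25h KO, 1 a lower one (Atp5sl), and 0 were called, with a median log2 fold change of 0.15. The 5 subunits of the catalytic F1 part had a median of 0.07 and the 11 other members 0.15. Atp5b stood at 1993, 2110 and 1873 CPM in WT and at 2212, 2265 and 2172 CPM in Ch25h KO. The groups did not overlap, and library 1 was not the highest in either of them. The log2 difference was 0.16 ± 0.15 (SE), with an adjusted p of 0.973 by limma, and lay between 0.11 and 0.20 when each library was left out in turn.

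Atp5k, the small e subunit in the membrane part, had the largest difference of complex V. It stood at 81.0, 55.3 and 55.7 CPM in WT and at 93.9, 75.5 and 71.6 CPM in Ch25h KO. WT library 1 lay within the Ch25h KO range and the other two WT libraries lay below it. This log2 fold change was 0.34 ± 0.19 (SE), with an unadjusted p of 0.105 and an adjusted p of 0.955 by limma. Atp5e, the epsilon subunit of the F1 central stalk, stood at 190, 111 and 132 CPM in WT and at 183, 159 and 160 CPM in Ch25h KO. The log2 difference was 0.25 (95% interval -0.19 to 0.68). WT library 1 was the highest of all 6. Atp5h, a subunit of the peripheral stalk, had a log2 fold change of 0.21 (95% interval -0.19 to 0.61), and Atp5l, the g subunit and the lowest member of the complex at a mean of 4.07 CPM, had 0.19 (95% interval -0.39 to 0.77).

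Isoform use was compared within libraries, as the log2 ratio of CPM + 1 for 7 pairs of related genes. The added 1 weighs heavily on rare genes, so their ratios depend on it. With 3 libraries a group, the exact two-sided permutation test cannot go below 0.1, so no pair could pass the threshold of 0.05. The ratio of Cox7a2l to its relative Cox7a2 was -2.11, -2.07 and -1.94 in WT and -2.17, -2.21 and -2.29 in Ch25h KO. The groups did not overlap, the difference was -0.18, the exact permutation p was 0.1 and the value adjusted over 7 pairs was 0.35. Of the windows of Cox7a2l, 19.8% occurred in another locus, and of those of Cox7a2 0%. The ratio of Ndufa4l2 to Ndufa4 was -5.55, -4.65 and -5.08 in WT and -6.57, -5.35 and -6.64 in Ch25h KO, with 1 Ch25h KO library inside the WT range. The difference was -1.09, with an exact permutation p of 0.2 and an adjusted p of 0.35.

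The other pairs gave small differences. Cox4i2 is an isoform known to be induced by low oxygen, and its ratio to the common Cox4i1 was -8.03, -8.05 and -8.34 in WT and -8.49, -8.31 and -8.38 in Ch25h KO, a difference of -0.25 with an exact permutation p of 0.2. Cox4i2 was thus rare in every library, at 0.540 to 1.53 CPM. The c subunit of ATP synthase is encoded by Atp5g1, Atp5g2 and Atp5g3, which make the same mature protein. Atp5g3 had the highest listed level of them, but 66.0% of the windows of Atp5g1 and 100% of those of Atp5g2 occur in other loci, and their levels are uncertain. The ratios of Atp5g1 and Atp5g2 to Atp5g3 differed by 0.06 and -0.12 between genotypes (exact permutation p of 0.3 and 0.2). The muscle isoform Cox7a1 against Cox7a2, and Cox6b2 against Cox6b1, differed by 0.14 and 0.0033, with exact permutation p values of 0.8 and 1. The 3 rare genes here, Cox4i2, Cox7a1 and Atp5g2, lie below the 1 CPM limit and were not among the 77.

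Within each group, most members had a common order of the libraries. WT library 1 was the highest of WT in 70 of 77 members (90.9%, against 39.1% of all genes tested), and WT library 2 the lowest in 62 (80.5%, against 33.6%). Ch25h KO library 1 was the highest of its group in 68 members (88.3%, against 38.0%). In 66 members (85.7%, against 23.1%) library 1 was the highest in both groups. Relative to each gene's mean over 6 libraries, the median member stood at 0.31, -0.32 and -0.17 in WT and at 0.25, 0.01 and -0.05 in Ch25h KO on the log2 scale. The medians of complexes I to V followed this order, standing in WT library 1 at 0.33, 0.11, 0.31, 0.35 and 0.25. Replicate numbers come from the sample titles, and nothing in the labels ties library 1 of the groups to each other.

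**Figure D4:**
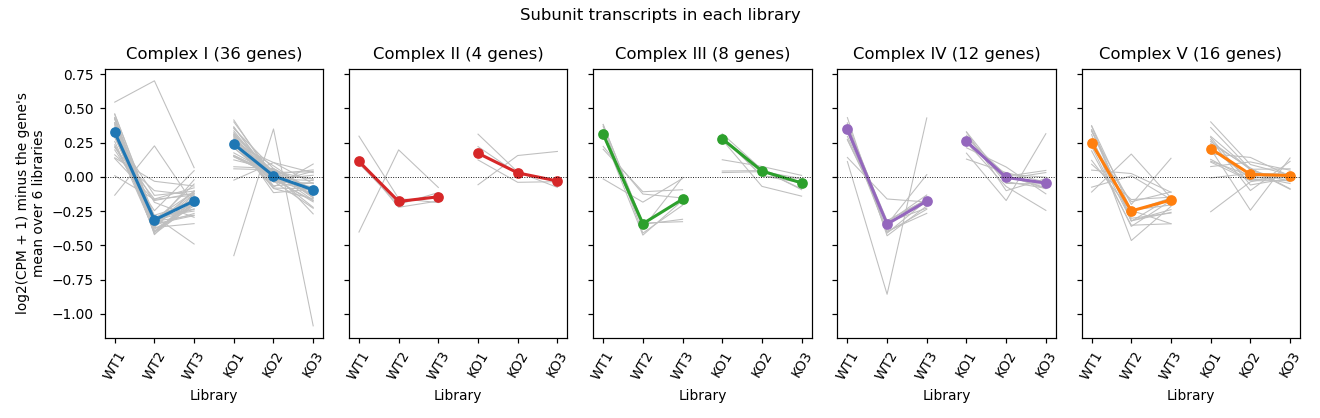
Deviation of each member in each library from its mean over 6 libraries, log2(CPM + 1), by complex; grey lines are genes and coloured points the median of the complex. In the medians of all 5 complexes, WT library 1 stands highest and WT library 2 lowest within WT, and Ch25h KO library 1 highest within Ch25h KO.

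This order went with transcript length. The 48 members under 1 kb had a median deviation of 0.34 in WT library 1 and -0.34 in WT library 2. The 22 members of 1 to 2 kb had 0.22 and -0.18, and the 6 members of 2 to 4 kb had -0.03 and -0.04. Other genes showed the same direction: 1070 genes under 1 kb stood at 0.23 and -0.23, and 2861 genes of 4 kb or more at -0.08 and 0.16. Over 76 members, Spearman's rho between length and the difference of library 1 from libraries 2 and 3 was -0.60 in WT and -0.42 in Ch25h KO. Over 11807 other genes it was -0.38 and -0.35. These are correlations across genes that share the same libraries, and genes are not independent replicates. Library 1 was highest in both groups in 95.8% of the members under 1 kb and in 55.2% of the other genes of that length.

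The members outside this order were mostly longer than 1 kb, but other members of that length kept it. Those outside it were Sdha, Ndufs1, Atp5a1, Atp5b, Uqcrc1, Uqcrc2, Uqcrfs1, Atp5s and Atp5sl, all longer than 1 kb, and Ndufa4l2 and Cox6b2, the members of lowest mean CPM. Library 1 was the highest of both groups in 3 of 6 members of 2 to 4 kb, among them the longest members, Sdhc and Cycs. After a smoothed relation with length was removed in each library, the median member stood at 0.11, -0.10 and -0.13 in WT and at 0.10, 0.03 and 0.03 in Ch25h KO. The median log2 fold change of the members was then 0.11, and that of all 11883 genes in this fit was 0.026. The order was not limited to the subunits. Library 1 was the highest of both groups in 92.1% of 76 mitochondrial ribosomal protein genes and in 91.0% of 78 cytosolic ribosomal protein genes. Between genotypes, the median log2 fold change was 0.11 in the mitochondrial and 0.027 in the cytosolic ones. Of the cytosolic ones, 48 had a higher and 30 a lower mean in Ch25h KO.

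**Figure D5:**
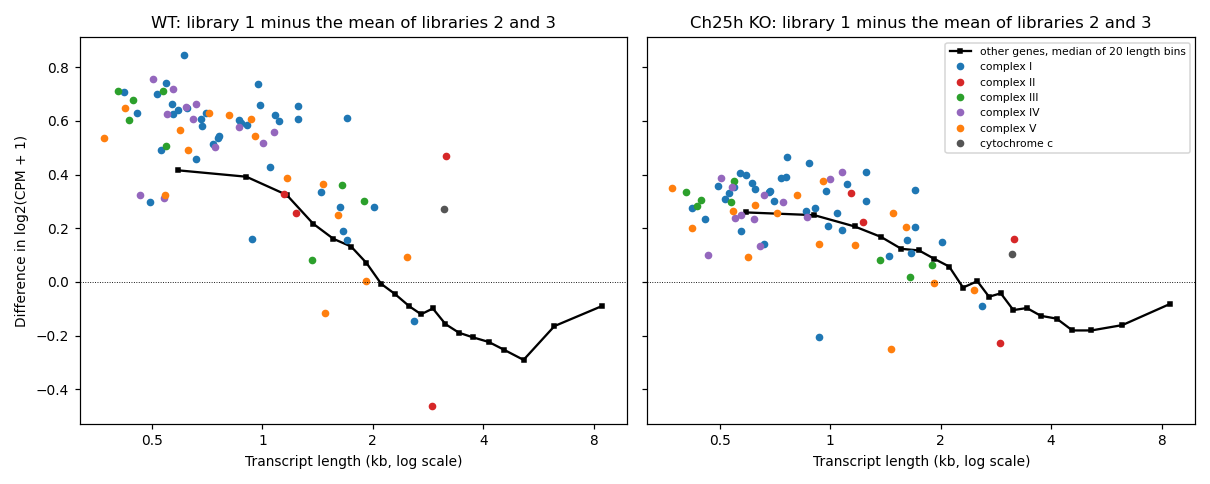
Library 1 minus the mean of libraries 2 and 3 in log2(CPM + 1), for WT (left) and Ch25h KO (right), against transcript length (kb, log scale); points are 76 members coloured by complex and the black line joins medians of 20 length bins of the other genes. Members under 1 kb lie above 0 in both panels other than Ndufa4l2, which lies at -0.21 in Ch25h KO, and Sdha, a complex II gene of 2.9 kb, lies lowest in WT at -0.46.

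Markers of other cells also differed between these libraries. The 12 melanoma markers summed to 212, 75.2 and 45.3 CPM in WT and to 269, 166 and 109 CPM in Ch25h KO, so library 1 was the highest of each group. Among them Oca2 was at 0 in at least 1 library, and 9 of 10 tested had a higher mean in Ch25h KO. Leukocyte markers (12 in the table) summed to 367, 41.3 and 195 CPM in WT and to 44.7, 187 and 279 CPM in Ch25h KO, with Csf1r and Ptprc at 0 in at least 1 library. Fibroblast markers (7 in the table, Fap at 0 in at least 1 library) summed to 365, 68.9 and 265 CPM in WT and to 79.1, 152 and 206 CPM in Ch25h KO. In both lists WT library 1 was the highest and WT library 2 the lowest of WT, as for most subunits, while Ch25h KO library 1 was the lowest of its group, unlike them. The lymphatic marker sum was lowest in library 1 of each group. Blood endothelial markers (5 in the table, Sox17 at 0 in at least 1 library) summed to 1863, 1941 and 2856 CPM in WT and to 1703, 1351 and 1726 CPM in Ch25h KO. Mural and red cell markers summed to at most 18.3 and 20.9 CPM in any library. The part of these cells, of RNA quality and of amplification in the subunit values was not tested, and fewer cells of a type cannot be told apart from less RNA per cell in bulk samples.

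Genes around the module were read from the same fit. The 5 subunits outside the naming rule all had higher means in Ch25h KO, with a median log2 fold change of 0.12 and 0 called. One of them, Cyc1, the cytochrome c1 subunit of complex III, stood at 305, 251 and 235 CPM in WT and at 346, 304 and 277 CPM in Ch25h KO. The log2 difference was 0.23, and WT library 1 lay within the Ch25h KO range. Usmg5, a small subunit of ATP synthase, had 0.20. Of 40 assembly factors, 28 had a higher and 12 a lower mean, with a median of 0.08 and 0 called. Ndufaf4, an assembly factor of complex I, stood at 37.3, 31.0 and 32.7 CPM in WT and at 49.8, 42.1 and 41.9 CPM in Ch25h KO. The groups did not overlap, and its log2 fold change was 0.39 ± 0.16 (SE), with an unadjusted p of 0.0329 and an adjusted p of 0.883 by limma. Ndufaf5, a further complex I factor, had 0.38, with overlapping groups.

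Regulators of mitochondrial genes had no common direction. Of 16 such genes, including the coactivators of the PGC-1 family, Nrf1, Gabpa, Esrra and Tfam, 6 had a higher and 10 a lower mean in Ch25h KO, with a median log2 fold change of -0.04 and 0 called. Gabpb2, a subunit of GABP, stood at 31.1, 31.4 and 31.9 CPM in WT and at 30.1, 21.7 and 27.3 CPM in Ch25h KO. All Ch25h KO libraries were below WT, and the log2 fold change was -0.26 ± 0.17 (SE), with an adjusted p of 0.973 by limma. Ppargc1b, a coactivator of mitochondrial gene expression, had -0.21 with overlapping groups.

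Other mitochondrial lists had medians of 0.11 to 0.14 on the log2 scale, and none held a called gene. Among mitochondrial ribosomal proteins, 65 of 76 had a higher mean in Ch25h KO, with a median of 0.11. Mrpl50, a protein of the large mitochondrial ribosomal subunit, stood at 46.0, 50.4 and 44.7 CPM in WT and at 65.8, 63.1 and 60.8 CPM in Ch25h KO. The groups did not overlap, and the log2 fold change was 0.42 ± 0.14 (SE), with an unadjusted p of 0.0128 and an adjusted p of 0.836 by limma. Mrpl28, also of the large subunit, had 0.27. Among 17 genes of the tricarboxylic acid cycle and pyruvate dehydrogenase, 14 had a higher mean, with a median of 0.11. Idh3a, a subunit of isocitrate dehydrogenase, stood at 154, 176 and 127 CPM in WT and at 213, 186 and 188 CPM in Ch25h KO, without overlap. The log2 difference was 0.37, with an adjusted p of 0.904 by limma. Pdhb, a subunit of pyruvate dehydrogenase, had 0.24 and did not overlap either.

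Carriers and import proteins of the mitochondrial membranes had a higher mean in 28 of 28 genes, with a median of 0.13 and 0 called. The import proteins Timm13 and Tomm40 had log2 fold changes of 0.31 and 0.24, with overlapping groups. Of 5 antioxidant and uncoupling genes, 5 had a higher mean, with a median of 0.14 and 0 called. Ucp2, a carrier of the uncoupling protein family, stood at 238, 157 and 194 CPM in WT and at 228, 253 and 427 CPM in Ch25h KO. Ch25h KO library 3 was far above the rest and WT library 1 lay within the Ch25h KO range. Its log2 fold change was 0.59 ± 0.24 (SE), with an adjusted p of 0.904 by limma. Txn2, the mitochondrial thioredoxin, had 0.14.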

How the data were processed

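The authors deposited a normalized signal for each of 6 libraries, which equals CPM scaled by edgeR's normalization factors. The submitters' processing notes name STAR 2.7.0, HTSeq 0.9.1, edgeR 3.26.8 and the mm10 build without roles or order. All values (100%) came out as whole reads within 0.01 reads once divided by the worth of 1 read, so depth was recovered from them. limma 3.58.1 (R 4.3.3, trended prior) was fitted to log2(CPM + 1), a scale that understates changes of low genes, over the 11980 genes that averaged 1 CPM or more, with Benjamini-Hochberg adjustment over all of them and a threshold of 0.05. Intervals are 95%. Isoform ratios had exact two-sided permutation tests. edgeR 4.0.16 and DESeq2 1.42.0 ran on recovered reads as alternatives, beside other pseudocounts, filters, scalings, library weights, a correction for length (local regression on log2 length per library), a block and leaving out each library. Scripts were tested on simulated data. Transcript lengths and shared 50-base windows came from GENCODE M21; 76 of 77 members had 1 gene record, and exons of 26 overlapped another gene. Promoters are RefSeq's.

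Members and lists were chosen with earlier results of these data known. Genes described by value are those of the 3 smallest p and of the highest and lowest mean in each complex, both genes of isoform pairs, the 2 of smallest p in each other pathway list (marker lists are given as sums), and the largest difference in each direction. Others were named after their values were seen: those in the description of copies and of library order.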

Additional observations from a re-analysis of the deposited data

How the results depend on the processing

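Under all alternatives run, 0 members were called, and the median log2 fold change of the members kept its sign, from 0.016 to 0.30. Over all genes, the tests on recovered reads called 0 genes with edgeR and 17 with DESeq2. Members at an unadjusted p under 0.05 by limma numbered 7 with library weights, against 16.2% of all genes, and 2 with the length correction, against 5.8%. Without library 1 of both groups (chosen after seeing the data) they numbered 9, against 7.73% of all genes, and the median was 0.21. The call of Ch25h was lost with a pseudocount of 0.25 (adjusted p = 0.0779), with edgeR (0.839) and DESeq2 (0.211), without WT library 1 (0.0792) and without library 1 of both groups (0.632). Over all genes, deviations of same-numbered libraries correlated at 0.24, -0.06 and -0.10, and not every library correlated best with its own number. Over the members they correlated at 0.65, 0.47 and 0.48, and every library correlated best with its own number. Most members share a common order of the libraries and are not independent, so these values cannot show that same-numbered libraries were paired. No label ties them to each other. With the replicate block, 0 members were called, 2 had an unadjusted p under 0.05 (Atp5k and Ndufa4l2), against 7.1% of all genes, and Cycs did not.

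Several values changed sign, among them the medians of complexes I and IV (0.11 and 0.14 in the main fit) and Cox6b2 (0.21). Cox6b2 was -0.15 with library weights, and Cox7a2l was 0.0076 without library 1 of both groups. The ratio Cox6b2/Cox6b1 differed by -0.13 with a pseudocount of 5 and by -0.062 without library 1 of both groups, and Cox7a1/Cox7a2 by -0.060 with a pseudocount of 5. When each library was left out in turn, ranges were -0.23 to 0.14 for Cox7a2l, -0.0041 to 0.30 for Cox4i1, -0.17 to 0.48 for Cox6b2, -0.015 to 0.32 for Ndufb8, -0.053 to 0.19 for Sdhc, -0.030 to 0.16 for Uqcrc1 and -0.028 to 0.36 for Cox7a2. The medians ran from -0.0043 to 0.29 for complex I and from -0.016 to 0.32 for complex IV. The ratios ran from -0.22 to 0.34 for Cox6b2/Cox6b1 and from -0.11 to 0.37 for Cox7a1/Cox7a2. The sign changed without WT library 2 for these single members other than Cox7a2l and for both medians, without WT library 3 for Sdhc and Uqcrc1, without Ch25h KO library 1 for Sdhc, and without WT library 1 or Ch25h KO library 3 for Cox7a2l. The cause was not tested. With 3 libraries a group, the intervals above limit what could be seen.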
